A study of Mus musculus with 2 samples.

Results

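The 9 genes that encode the AMPA receptor subunits (*Gria1*, *Gria2*, *Gria3* and *Gria4*) and the kainate receptor subunits (*Grik1*, *Grik2*, *Grik3*, *Grik4* and *Grik5*) were examined among the 32285 genes counted in hippocampal Cajal-Retzius (CR) cells. They were chosen by gene symbol, and all 9 had a UMI in both libraries. A UMI, or unique molecular identifier, marks 1 captured RNA molecule. Single-cell RNA-sequencing had been performed on CR cells of mice aged 14 days after birth, in 1 control library of 4 pooled mice (3 males and 1 female) and 1 knockout library of 4 pooled littermates (2 males and 2 females). Controls were ΔNp73-Cre; Cic flox/+; tdT and knockouts ΔNp73-Cre; Cic flox/flox; tdT, so that both carried the Cre driver, the tdT reporter and at least 1 floxed allele of *Cic*, a transcriptional repressor. The control cells were therefore heterozygous and not wild type, and only live cells positive for tdT in the sort were loaded. With 1 library per genotype no difference had a replicate check. Cells of 1 library are not replicates, so values are given with 95% exact intervals that cover counting error only.

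Cells were barcodes with at least 2000 UMIs, of which at least 5 were from *Reln*, the gene for reelin that CR cells secrete. This rule kept 1003 of 1011 control barcodes and 390 of 406 knockout barcodes with at least 2000 UMIs, and the libraries shared 0 of these barcodes. The median cell held 6224 UMIs (control) or 6664 UMIs (knockout). All 8 listed CR markers were found in at least 25% of cells of both libraries, summing to 14104 and 13569 CPM (UMIs of a gene scaled to a total of 1000000 UMIs outside mitochondrial and ribosomal protein genes). *Reln* is on this list and gave 8176 and 7873 CPM of these sums. The rule required it, so its presence is no check of the cells, and only the other listed markers are. The 8 listed markers of GABAergic neurons summed to 2.88 and 1.81 CPM, with 4 and 5 of them at 0. The pyramidal neuron list summed to 49.7 and 51.3 CPM, the granule neuron list to 25.8 and 31.1 CPM, and the lists of glial, precursor, microglial and endothelial cells to between 25.1 and 107 CPM. In each library 1 astrocyte, 1 precursor and 1 endothelial marker was also found in at least 25% of cells, and no marker of the other non-CR lists was. *Cic* was at 58.9 CPM in control and 51.3 CPM in knockout cells (ratio 0.871, 0.714 to 1.06), and since the 3′ counts need not cover the floxed exons this does not check the deletion. *Etv4* and *Etv5*, which Cic is known to repress, were at 1.97 and 15.0 CPM in the control and both at 70.9 CPM in the knockout.

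AMPA receptors are tetramers of GluA1 to GluA4, encoded by *Gria1* to *Gria4*, and carry most fast excitatory transmission in the brain. Receptors that contain edited GluA2 pass little calcium. Kainate receptors are tetramers in which GluK1 to GluK3 (*Grik1* to *Grik3*) can form channels by themselves, whereas GluK4 and GluK5 (*Grik4* and *Grik5*) bind glutamate with high affinity and need 1 of the others to reach the cell surface.

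The subunits meet at the pore loop, where a glutamine codon of *Gria2*, *Grik1* and *Grik2* is edited in RNA to one read as arginine (the Q/R site). The coding sequence around this codon is shown for the 7 subunits on which the results turn, to show how alike the 2 families are where the ion path is lined. Each run is 30 bases from a GENCODE M21 transcript of GRCm38, written 5′ to 3′ along the transcript, with the glutamine codon in capitals.
Gria1: ggggccttcatgCAGcaaggatgtgacatt
Gria2: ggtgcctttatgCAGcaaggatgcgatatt
Gria4: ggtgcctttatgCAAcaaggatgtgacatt
Grik1: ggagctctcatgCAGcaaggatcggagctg
Grik2: ggagctctcatgCAGcaaggttctgagctc
Grik4: ggaggcttcatgCAGcaaggctccactatt
Grik5: ggtggcttcatgCAGcagggctcggagatc
Of the 30 bases, *Gria4* shared 27 with *Gria2* and *Gria1* shared 26, while the kainate subunits shown shared between 20 and 23. The codon lies at chr3:80706911-80706913 in exon 11 of 16 of *Gria2* (minus strand), at chr16:87940542-87940544 in exon 13 of 18 of *Grik1* (minus strand) and at chr9:42547623-42547625 in exon 16 of 21 of *Grik4* (minus strand). UMIs counted from the 3′ ends of transcripts give the amount of each RNA and do not show whether it was edited. The genes for the editing enzymes were measured beside them: *Adarb1*, which encodes the enzyme known to edit this site of *Gria2*, was at 62.0 CPM in control and 59.3 CPM in knockout cells, and *Adar* at 51.5 and 49.9 CPM.

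Among the AMPA subunits, 3 were abundant in CR cells of both genotypes. In control cells, *Gria4* (ENSMUSG00000025892; chromosome 9, 4417896 to 4796234) was at 982 CPM from 6480 UMIs. *Gria2* (ENSMUSG00000033981; chromosome 3, 80681450 to 80802835) was at 964 CPM from 6361 UMIs, and the intervals of these 2 levels overlapped. *Gria1* (ENSMUSG00000020524; chromosome 11, 57011387 to 57330244) was lower, at 835 CPM from 5510 UMIs. In knockout cells the same order held, with *Gria4* at 1060 CPM, *Gria2* at 1001 CPM and *Gria1* at 800 CPM. *Gria3* (ENSMUSG00000001986; chromosome X, 41400854 to 41678601) had 26 UMIs in all 1003 control cells (3.94 CPM, 2.57 to 5.77) and 7 UMIs in the 390 knockout cells (2.53 CPM, 1.02 to 5.21). Thus the AMPA receptor RNA of these cells was made up of *Gria1*, *Gria2* and *Gria4* at similar levels with almost no *Gria3*: of the AMPA subunit UMIs in the control, *Gria1* took 29.3% to 30.7%, *Gria2* 34.6% and *Gria4* 35.3%, and in the knockout 27.9%, 35.0% and 37.0%.

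The kainate subunits were far scarcer and much less even. *Grik5* (ENSMUSG00000003378; chromosome 7, 25009849 to 25072346) was the highest at 135 CPM in control and 141 CPM in knockout cells. *Grik1* (ENSMUSG00000022935; chromosome 16, 87895900 to 88290265) followed at 79.7 CPM in control and 48.1 CPM in knockout cells. *Grik2* (ENSMUSG00000056073; chromosome 10, 49094833 to 49788766) was at 23.6 and 27.1 CPM, and 2 other counted genes on its strand overlap it, so its count is uncertain. *Grik4* (ENSMUSG00000032017; chromosome 9, 42518135 to 42944493) was at 18.9 CPM in control and 43.7 CPM in knockout cells. In the control, the intervals of *Grik2* (20.1 to 27.6) and *Grik4* (15.8 to 22.6) overlapped. *Grik3* (ENSMUSG00000001985; chromosome 4, 125490700 to 125714173) was close to undetected, at 3.94 CPM in the control from 26 UMIs and 5.42 CPM in the knockout from 15 UMIs. *Grik5* alone took 51.7% of the kainate subunit UMIs in the control and 53.1% in the knockout.

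Together the 4 AMPA genes took 0.278% of the UMIs of control cells (0.274 to 0.282) and 0.286% of those of knockout cells (0.280 to 0.293). The 5 kainate genes took 0.0261% (0.0249 to 0.0274) and 0.0265% (0.0246 to 0.0285). The intervals of the libraries overlapped for each family, though only narrowly for AMPA. Overlap alone does not show that the sums were alike, and no ratio interval was computed for them. Levels of different genes were also compared per kilobase of exons, although a 3′ library counts each molecule once whatever its length. On that scale *Gria4* (156 and 168 CPM per kilobase) stayed first and *Gria1* (138 and 132) came before *Gria2* (62.0 and 64.4), whose annotated exons are the longest of the 9 at 15.5 kilobases. In the knockout *Grik4* (7.34) then stood just above *Grik1* (7.15).

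Droplets of 20 to 100 UMIs, which hold free RNA and no cell, gave the background. *Gria1*, *Gria2* and *Gria4* were at 112 to 118 CPM in the 29040 control droplets and at 121 to 143 CPM in the 75813 knockout droplets, well below the cells. *Grik5* was at 101 CPM in the droplets of both libraries, not far below its level in cells. *Grik4* was at 2.30 and 9.54 CPM in droplets of the control and knockout libraries, below the cells of each library. *Grik3* was at a higher CPM in droplets (9.18 and 13.5 CPM) than in cells, so its level in cells did not stand above free RNA. It had 20 UMIs in the 29040 control droplets and 41 in the 75813 knockout droplets. The source of its few UMIs in cells was not tested. *Gria3* was at 1.38 CPM (0.284 to 4.02) from 3 UMIs in control droplets, and at 3.29 CPM (1.58 to 6.05) from 10 UMIs in knockout droplets. Each interval overlapped that of *Gria3* in the cells of the same library, so no order is read from them. The source of its 7 UMIs in knockout cells was not tested either. *Grik1* stood at 23.4 CPM (17.4 to 30.8) in droplets of the control library and at 58.9 CPM (50.6 to 68.2) in those of the knockout, so that in the knockout its level was no higher in cells than in free RNA. A control droplet held a median of 89 UMIs and a knockout droplet 44, and *Grik1* UMIs were found in 0.169% and 0.228% of droplets against 19.3% and 17.9% of cells. With the mean of the droplets subtracted from every cell, the ratio of knockout to control was 0.598 for *Grik1* and 2.30 for *Grik4*, against 0.604 and 2.31 without it. The content of 1 mean droplet is small beside that of a cell, so this step could hardly move the ratios. The part of free RNA in the differences was not tested.

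**Figure D1:**
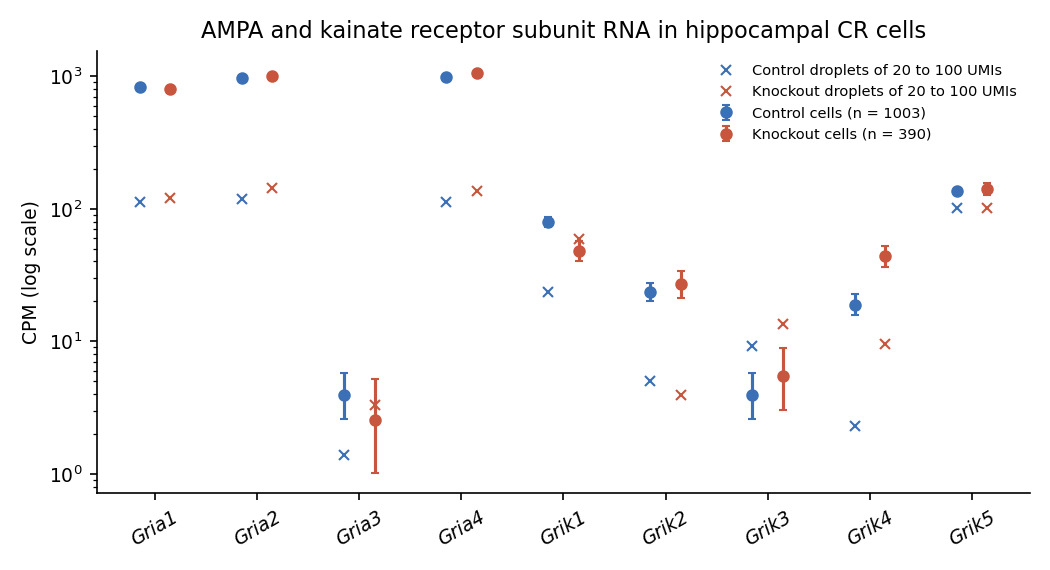
CPM of the 9 subunits (log axis) in control cells (blue) and knockout cells (red), with 95% exact Poisson intervals, and in droplets of 20 to 100 UMIs of the same library (crosses). *Gria1*, *Gria2* and *Gria4* lie between 800 and 1060 CPM, *Gria3* and *Grik3* at or below 5.42 CPM, and the genotypes are furthest apart for *Grik1* and *Grik4*.

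Most cells held all 3 abundant AMPA subunits. *Gria2* UMIs were found in 96.5% of control cells and 96.9% of knockout cells, *Gria4* in 95.2% and 96.2%, and *Gria1* in 92.1% and 93.6%. All of them were found in the same cell in 867 control cells (86.4%) and 345 knockout cells (88.5%). When each cell was thinned to 2000 UMIs, the shares were 77.4% and 76.2% for *Gria2*, 77.2% and 76.9% for *Gria4* and 71.8% and 70.5% for *Gria1*. In droplets *Gria2* was found in 0.868% of those of the control. A cell without any *Gria2* UMI was rare and shallow: there were 35 in the control, with a median of 3850 UMIs per cell, and 12 in the knockout, with a median of 4648 UMIs. At least 10 AMPA subunit UMIs were held by 7 of these control cells and 6 of these knockout cells.

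The mix of AMPA subunits differed from cell to cell more than counting alone gives. In the 807 control cells with at least 10 AMPA subunit UMIs, the share of *Gria2* had a median of 33.3% and ran from 13.6% at the 10th percentile to 61.3% at the 90th. In the 329 knockout cells the median was 31.8%, from 12.5% to 58.7%. The variance of the *Gria2* share was 2.84 times the binomial variance in the control and 3.15 times in the knockout. For *Gria1* it was 2.54 and 2.57 times, and for *Gria4* 2.41 and 2.60 times.

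Kainate subunits were found in fewer cells. *Grik5* UMIs were found in 55.9% of control cells and 60.5% of knockout cells, and in 24.3% and 23.8% after thinning to 2000 UMIs. *Grik1*, *Grik2* or *Grik3*, the subunits that form channels by themselves, were found in 29.3% of control cells (26.5 to 32.2) and 29.7% of knockout cells (25.2 to 34.6). *Grik4* or *Grik5* were found in 59.8% (56.7 to 62.9) and 69.5% (64.7 to 74.0). Both kinds were found in the same cell in 17.0% and 21.5% of cells, and no kainate subunit in 27.9% and 22.3%. At 1 or 2 UMIs per cell, a missing subunit says little about whether the cell made it.

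*Grik1* was the least evenly spread of the subunits in the control. In the control, 809 of 1003 cells had no *Grik1* UMI, while 27 cells with at least 5 UMIs held 232 of the 526 UMIs and the highest cell held 26. In the knockout, 320 of 390 cells had none, only 2 cells had at least 5 UMIs, and the highest held 9. After thinning, the variance of *Grik1* UMIs per cell was 2.37 times the mean in the control, against a median of 1.07 over 8304 genes with at least 100 UMIs, and 1.00% of these genes had a higher value. In the knockout the value was 1.27, against a median of 1.10. By the same measure *Gria1*, *Gria2* and *Gria4* lay between 1.47 and 1.65 in both libraries. *Grik4* was at 1.02 in the control, below the median of all genes, and at 1.21 in the knockout, above it. These values rest on only 37 and 34 thinned UMIs, and that of *Grik1* in the knockout on 34, so they are uncertain. *Grik5* was at 0.992 and 1.42. No control cell held more than 2 *Grik4* UMIs, and no knockout cell more than 6.

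**Figure D2:**
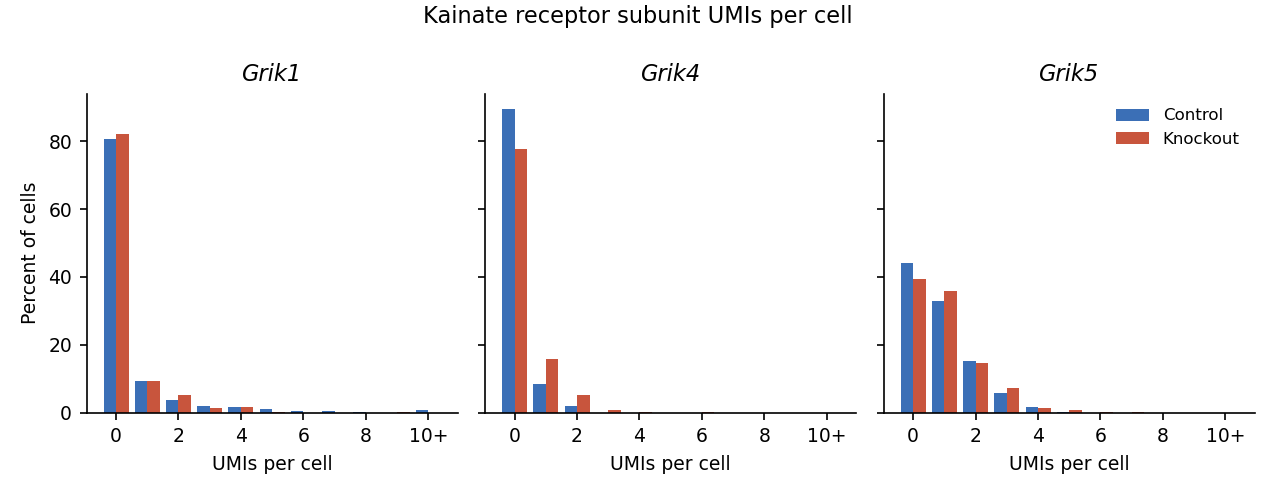
Percent of control cells (blue) and knockout cells (red) by the number of *Grik1*, *Grik4* and *Grik5* UMIs in the cell, with cells of 10 or more UMIs in the last bar. For *Grik1* a tail of 27 control cells reaches 5 UMIs or more, and for *Grik4* the share of cells with none is 89.5% in the control and 77.7% in the knockout.

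The first comparison asked whether the receptor subunits differed between the knockout and control libraries. The paper found CIC protein lost from most but not all hippocampal CR cells of this knockout line. The knockout cells may therefore include some that kept it. *Grik4* had 125 UMIs in the control (18.9 CPM, 15.8 to 22.6) and 121 UMIs in the smaller knockout library (43.7 CPM, 36.3 to 52.3), a ratio of 2.31 (1.78 to 2.99). *Grik1* had 526 UMIs in the control (79.7 CPM, 73.0 to 86.8) and 133 in the knockout (48.1 CPM, 40.3 to 57.0), a ratio of 0.604 (0.495 to 0.731). *Grik4* was thus higher and *Grik1* lower in the knockout, with intervals that did not overlap between the libraries. The kainate family as a whole took 0.0261% of UMIs in control and 0.0265% in knockout cells. Within the kainate family, *Grik4* took 7.25% of the UMIs of control cells and 16.5% of those of knockout cells, and *Grik1* took 30.5% and 18.1%.

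The other subunits lay closer to 1. The ratio of knockout to control was 0.958 (0.912 to 1.01) for *Gria1*, 1.04 (0.993 to 1.09) for *Gria2*, 1.08 (1.03 to 1.13) for *Gria4* and 1.04 (0.922 to 1.17) for *Grik5*. For *Grik2* it was 1.15 (0.859 to 1.52). *Gria3* (0.643, 0.235 to 1.52) and *Grik3* (1.38, 0.678 to 2.70) had too few UMIs for a difference of this size to be detectable. Of the 7 subunits with at least 100 UMIs over both libraries, 2 were past 1.5-fold, where 4.40% of the 9442 genes with as many UMIs were. The median ratio was 1.04 over the 7 subunits and 1.00 over all these genes. A higher ratio than that of *Grik4* was found in 32 of the 9442 genes, and a lower ratio than that of *Grik1* in 61.

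**Figure D3:**
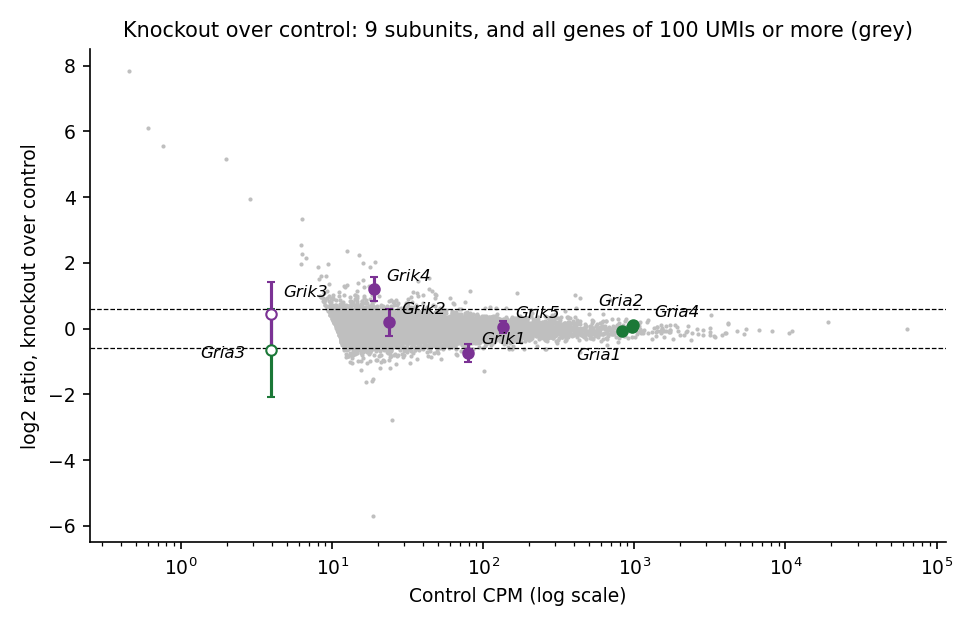
Log2 ratio of knockout to control against control CPM (log axis) for all 9442 genes with at least 100 UMIs (grey) and for the AMPA subunits (green) and kainate subunits (purple), with 95% exact intervals and open symbols for the 2 subunits under 100 UMIs. Dashed lines mark 1.5-fold. *Grik4* lies above and *Grik1* below the lines, and *Gria1*, *Gria2*, *Gria4*, *Grik2* and *Grik5* lie between them.

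The difference in *Grik4* was found in cells of both sexes. Sex was read per cell from *Xist* and 4 Y-linked genes. In cells read as female, *Grik4* was at 17.4 CPM in control and 40.8 CPM in knockout cells (ratio 2.34, 1.42 to 3.95), and in cells read as male at 19.4 and 46.9 CPM (2.42, 1.74 to 3.35). *Grik1* was at 75.3 and 66.1 CPM in female cells (0.878, 0.650 to 1.18) and at 81.6 and 35.7 CPM in male cells (0.438, 0.320 to 0.587). Hence the lower level of *Grik1* in the knockout was seen in male cells, while in female cells the interval included 1. Of the cells with a sex read, 24.4% were female in the control library and 47.6% in the knockout library. The part of mouse and sex in the difference was not tested. With each subunit capped at 5 UMIs per cell, which removes the weight of the few control cells rich in *Grik1*, the ratio of *Grik1* was 0.718 and that of *Grik4* 2.29.

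*Grik4* was also compared between cells with and without RNA of *Etv4* or *Etv5*. In the knockout, the 162 cells with a UMI of either had 57.0 CPM of *Grik4* and the other 228 cells 33.2 CPM (ratio 1.72, 1.18 to 2.51). The cells with a UMI were deeper, with a median of 7266 UMIs against 6210, and after thinning 7.41% and 7.89% of cells held a *Grik4* UMI, so no order is read from these values. In the control, the 87 cells with *Etv4* or *Etv5* RNA had 10.5 CPM of *Grik4* and the other 916 cells 19.9 CPM (0.527, 0.207 to 1.12). Cells without *Etv4* or *Etv5* RNA also differed between the libraries, at 19.9 CPM in control and 33.2 CPM in knockout cells (1.67, 1.18 to 2.34).

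Promoters were searched for the octamers TGAATGAA and TGAATGGA, which Cic is known to bind, on both strands, in 300-base windows around the gene start from RefSeq (GRCm38.p6). The table held windows for 6 of the 9 subunits (*Gria2*, *Gria4*, *Grik2*, *Grik3*, *Grik4* and *Grik5*), and 0 of the 6 held either octamer. Of all 32851 windows, 811 (2.469%) held one. The 2 windows of *Etv5* held none either, so these short windows say nothing about binding elsewhere.

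The second comparison set cells with at least 1 UMI of *Cck*, the gene for the neuropeptide cholecystokinin, against cells with none. In the control, 324 cells were *Cck*-positive and 679 negative, with medians of 6397 and 6148 UMIs. *Grik1* was at 42.4 CPM in *Cck*-positive and 99.5 CPM in *Cck*-negative control cells (ratio 0.426, 0.338 to 0.532). In the knockout, with 110 and 280 cells, *Grik1* was at 21.4 CPM from 17 UMIs and 58.9 CPM from 116 UMIs (0.363, 0.204 to 0.607). *Grik1* was thus lower in *Cck*-positive cells of both libraries, and it was the only subunit with at least 100 UMIs past 1.5-fold: 1 of 7 such subunits in the control, where 5.07% of 8304 genes were past it, and 1 of 6 in the knockout, where 8.27% of 5226 genes were.

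Among the AMPA subunits the balance of *Gria1* and *Gria2* moved slightly with *Cck*. In the control, *Gria2* was at 892 CPM in *Cck*-positive and 1001 CPM in *Cck*-negative cells (0.891, 0.845 to 0.940), and in the knockout at 813 and 1077 CPM (0.755, 0.690 to 0.825). *Gria1* was at 932 and 783 CPM in the control (1.19, 1.13 to 1.26) and at 833 and 786 CPM in the knockout (1.06, 0.966 to 1.16). *Gria4* differed by less than its intervals in both libraries (1.05 and 1.01), as did *Grik5* (1.05 and 0.952). The ratio of *Grik4* was 1.02 (0.693 to 1.5) in control cells, and 0.746 (0.470 to 1.15) in knockout cells. *Gria3* and *Grik3*, near the limit of detection, had 16 and 14 UMIs in *Cck*-positive control cells and 10 and 12 UMIs in negative ones.

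The third comparison set cells with a UMI of *Chst8*, a sulfotransferase gene, or *Alkal2*, which encodes a ligand of the receptor ALK, against cells with neither. In the control, 232 cells were positive and 771 negative. *Grik1* was at 27.5 CPM in positive and 96.8 CPM in negative control cells (0.284, 0.205 to 0.386). In the knockout, with 91 and 299 cells, the same values were 42.2 and 50.3 CPM (0.838, 0.545 to 1.26). This interval included 1, and it did not overlap the interval of the control. *Grik4* was at 15.9 and 19.9 CPM in the control (0.798, 0.497 to 1.24) and at 29.0 and 49.3 CPM in the knockout (0.588, 0.353 to 0.940). The count past 1.5-fold was 1 of 7 subunits in the control, where 6.42% of genes were past it, and 1 of 6 in the knockout, where 8.08% of genes were.

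*Gria2* was at 992 CPM in positive and 954 CPM in negative control cells (1.04, 0.982 to 1.10), and at 1129 and 953 CPM in the knockout (1.19, 1.09 to 1.29). *Gria1* had ratios of 0.956 (0.898 to 1.02) and 0.880 (0.797 to 0.969), *Gria4* of 0.912 (0.860 to 0.967) and 0.947 (0.872 to 1.03), and *Grik5* of 0.989 and 0.991. Genes induced by activity or dissociation moved with this split: 8 early genes summed to 1831 CPM in positive and 1217 CPM in negative control cells, and to 2012 and 899 CPM in the knockout. Positive cells were also deeper, with medians of 6721 against 6059 UMIs (control) and 7869 against 6361 UMIs (knockout). The part of these in the differences was not tested.

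Both splits together gave 4 classes in each library. In the control, *Grik1* was highest in the 517 cells with neither *Cck* nor *Chst8* or *Alkal2* RNA, at 126 CPM (114 to 139). The 216 knockout cells with neither were at 61.6 CPM (49.4 to 75.8). In cells with *Cck* only *Grik1* was at 42.7 and 22.5 CPM, in those with *Chst8* or *Alkal2* only at 20.4 and 51.8 CPM, and in those with both at 41.5 and 18.3 CPM. The knockout values with *Cck* only and with both rest on 13 and 4 UMIs. The knockout value with *Chst8* or *Alkal2* only lay within the interval of knockout cells with neither. No order of those classes is therefore read in the knockout. The ratio of knockout to control was thus 0.489 (0.384 to 0.617) in cells with neither and 0.527 (0.268 to 0.958) in those with *Cck* only, but 2.54 (1.40 to 4.66) in those with *Chst8* or *Alkal2* only, from 28 UMIs in 64 knockout cells and 22 UMIs in 162 control cells. 1 of these knockout cells held 9 of the 28 UMIs. In cells with both, the ratio of *Grik1* was 0.442 (0.111 to 1.29). The ratio of *Grik4* was above 1 in all 4 classes, at 2.78 (1.98 to 3.90) in cells with neither, 1.64 (0.868 to 2.99) with *Cck* only, 1.60 (0.683 to 3.66) with *Chst8* or *Alkal2* only and 2.31 (0.880 to 6.0) with both. Only the first of these intervals left out 1. *Gria2* ran from 801 CPM in control cells with both to 1090 CPM in those with *Chst8* or *Alkal2* only, and in the knockout from 774 CPM with *Cck* only to 1215 CPM with *Chst8* or *Alkal2* only.

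**Figure D4:**
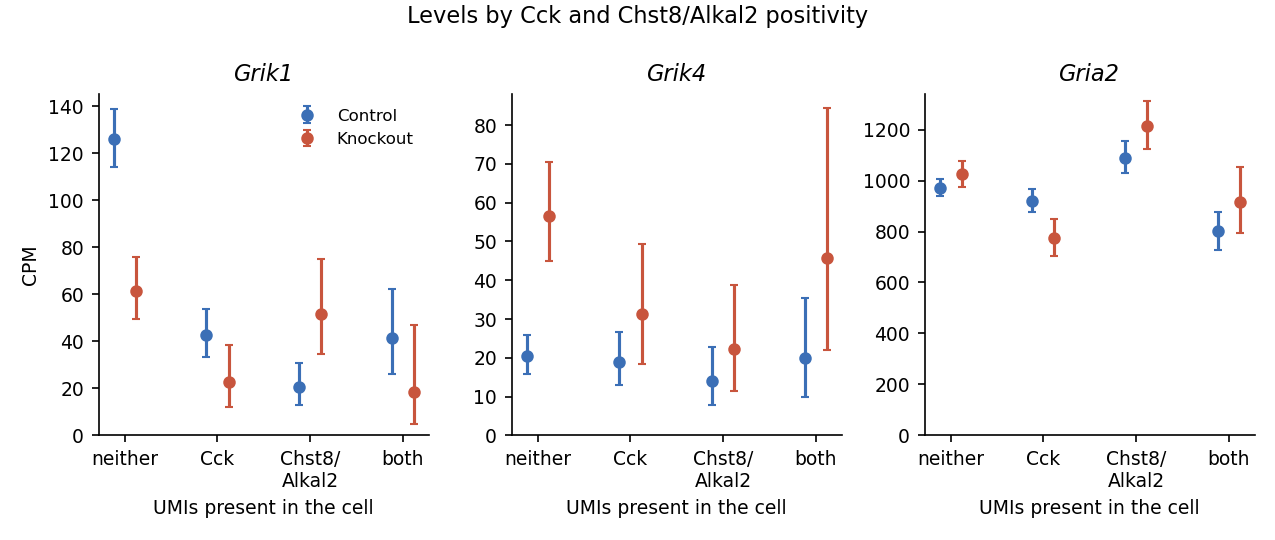
CPM of *Grik1*, *Grik4* and *Gria2* in control (blue) and knockout (red) cells with neither *Cck* nor *Chst8* or *Alkal2* RNA, with *Cck* only, with *Chst8* or *Alkal2* only and with both, with 95% exact Poisson intervals. *Grik1* is at 126 CPM in control cells with neither and at most 42.7 CPM in the other control classes. *Grik4* is at 56.7 CPM in knockout cells with neither.

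Over these 8 groups of cells *Grik1* varied most among the 5 subunits with at least 300 UMIs, with an SD of 0.92 on the scale of log2(CPM + 1). *Gria2* had an SD of 0.22, *Gria1* 0.18, *Gria4* 0.11 and *Grik5* 0.09, and the level of *Gria2* ran from 774 to 1215 CPM over the groups. Among 5563 genes with at least 300 UMIs, those whose log2 level was most like that of *Grik1* over the 8 groups were *Cntnap2* (Pearson's r = 0.948), which encodes a neurexin-like adhesion protein, *Barhl2* (0.908), a homeobox gene, *Mapk8* (0.903), the gene for the kinase JNK1, *Lrfn5* (0.887), which encodes a synaptic adhesion protein, and *Hps4* (0.869), which encodes part of a complex needed for lysosome-related organelles. These r values describe 8 groups from 2 libraries and were the highest of many. They do not weigh the size of a change. *Cntnap2* ran from 9255 to 11747 CPM over the groups, and *Grik1* from 18.3 CPM, which rests on 4 UMIs, to 126 CPM.

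Cells with a high share of nuclear respiratory chain transcripts (at least 1.5% of UMIs, 102 control and 41 knockout cells) had lower AMPA subunit levels. In the control, *Gria2* was at 584 CPM in them and 1037 CPM in the other cells (0.563, 0.518 to 0.612), and in the knockout at 677 and 1068 CPM (0.634, 0.563 to 0.713). The AMPA family took 0.174% of their UMIs against 0.299% in the control, and 0.187% against 0.307% in the knockout. *Grik1* was at 52.6 and 84.9 CPM in the control, and at 10.6 and 55.8 CPM in the knockout, where the first value rests on 5 UMIs. These cells were deeper, with medians of 13182 and 13104 UMIs. Without them, the ratio of knockout to control was 0.657 for *Grik1* and 2.41 for *Grik4*.

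The partners of the receptors were taken from a list of 26 genes. Of these, 20 had at least 100 UMIs over both libraries and 2 were past 1.5-fold between knockout and control, where 4.40% of all 9442 genes were. Both are auxiliary subunits of kainate receptors. *Neto1* was at 28.5 CPM in control and 43.7 CPM in knockout cells (1.54, 1.21 to 1.94), and *Neto2* at 11.7 and 19.5 CPM (1.67, 1.16 to 2.40). The median log2 ratio was 0.04 over the 20 partners and 0.01 over all genes. Among the AMPA auxiliary subunits, the most abundant were *Cnih2* (58.8 and 61.1 CPM), *Cacng7* (56.3 and 57.1 CPM) and *Cacng2*, the gene for stargazin (56.7 and 55.7 CPM), and among the scaffold and trafficking genes *Dlg2* (534 and 432 CPM) and *Dlg1* (188 and 189 CPM). *Grid1*, which encodes a delta-type glutamate receptor, was at 70.0 and 81.0 CPM.

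*Neto1* also moved with *Cck*, in the direction opposite to that of *Grik1*. It was at 38.0 CPM in *Cck*-positive and 23.4 CPM in *Cck*-negative control cells (1.62, 1.20 to 2.18), and at 86.7 and 26.4 CPM in the knockout (3.29, 2.26 to 4.80). Of 17 partners with at least 100 UMIs in the control, 2 were past 1.5-fold with *Cck*, where 5.07% of all genes were, the other being *Cacng5*, an AMPA auxiliary subunit gene (54.2 and 23.2 CPM). Of 12 in the knockout, 2 were, where 8.27% of all genes were, the other being *Adarb1* (86.7 and 48.2 CPM). *Cacng5* was at 62.8 and 21.3 CPM in the knockout (2.95, 1.92 to 4.55). It was left out of that count because its 50 and 42 UMIs together fell under the minimum of 100. The ratio of *Adarb1* in the control was 1.04 (0.840 to 1.27). With *Chst8* or *Alkal2*, 1 of 17 was past it in the control, *Neto1* (17.1 and 32.2 CPM, 0.532), which is near the 6.42% of all genes. In the knockout, where 8.08% of all genes were, 2 of 12 were, *Adarb1* (79.1 and 51.8 CPM) and *Grid1* (52.7 and 91.7 CPM). The ratio of *Neto1* in the knockout was 1.17 (0.769 to 1.73). In the control the ratio was 1.45 (1.17 to 1.79) for *Adarb1* and 0.808 (0.639 to 1.01) for *Grid1*.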

How the data were processed

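Raw counts of UMIs per gene and barcode, which the authors deposited without normalization for all barcodes of 2 libraries (Chromium 3′ v3.1), were used as deposited. The control matrix held 16336796 UMIs and the knockout matrix 6777071. The matrix header, the methods and the submitters' processing notes (Cell Ranger 8.0.1, mm39) name different Cell Ranger versions or builds, and whether introns or strand were counted is not given in the sources used here. Gene positions were matched by Ensembl identifier to GENCODE M21 (GRCm38). UMIs were summed over cells and scaled to CPM outside 192 mt-, Rpl, Rps and Mrp genes. Exact Poisson intervals, Clopper-Pearson intervals and exact conditional intervals for ratios were computed with Python 3.11.15, numpy 2.4.6 and scipy 1.17.1. With 1 library per genotype, no significance test was run. Genes with at least 100 UMIs over the cells compared were set against a 1.5-fold limit. No doublets were removed in the values reported, and Scrublet in scanpy 1.11.5 was an alternative. The genes named were the 9 subunits, the listed partners past 1.5-fold or among the 2 most abundant of their kind (*Adar* and *Adarb1* for editing), the 5 genes most like the most variable subunit, and *Cic*, *Etv4* and *Etv5*. Of the partners first listed, 1 is not reported here, and the counts leave it out. The members and lists were chosen with earlier results of these data known. The intervals and the thinning were tested on simulated Poisson counts, which lack the extra spread between cells seen for genes such as *Grik1*. Alternatives changed the limits on cells, scaling, depth, background, sex and class. The splits by *Etv4* or *Etv5* RNA and the limit of 5 UMIs per cell were added after seeing the data.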

Additional observations from a re-analysis of the deposited data

Results flagged for a closer look

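The ratio of knockout to control lay on opposite sides of 1 between classes of cells, with intervals that left out 1, for *Grik1* and *Gria2*. For *Grik1* it was 2.54 in cells with *Chst8* or *Alkal2* RNA only, against 0.489 in cells with neither and 0.527 in cells with *Cck* RNA only. The value of 2.54 rests on 28 UMIs in knockout cells, 9 of them in 1 cell, and 22 UMIs in control cells. For *Gria2* the ratio was 1.11 in cells with *Chst8* or *Alkal2* RNA only (1.01 to 1.23) and 0.840 in cells with *Cck* RNA only (0.754 to 0.933). The intervals cover counting error only, the classes come from 1 library per genotype, and the difference between classes was not tested.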

How the results depend on the processing

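No paired analysis was possible because each genotype has 1 library and no result comes from a test. Against 2 of 7 subunits past 1.5-fold between knockout and control, the count was 1 of 5 after thinning to 2000 UMIs (5.45% of all genes past the limit) and 1 of 5 with genes of at least 300 UMIs (1.63%). It was 1 of 7 at 2-fold (0.731%) and, in an alternative chosen after seeing the data, 1 of 7 with each subunit capped at 5 UMIs per cell (4.38%). It was 0 of 5 in female cells (5.18%), and 0 of 4 within the classes with *Cck* only (6.75%), *Chst8* or *Alkal2* only (6.97%) and both (10.5%). *Grik4* left the count after thinning, at the minimum of 300, in female cells and in the 3 classes because its UMIs fell under the minimum. Its ratio was 2.37 after thinning and 2.34 in female cells. *Grik1* left it at 2-fold, when capped (0.718) and in female cells (0.878) by its ratio, and in the 3 classes by its UMIs. The ratio of *Grik1* reversed to 2.54 within *Chst8* or *Alkal2* only, from 28 knockout and 22 control UMIs, and the cause was not tested. For *Cck*, the knockout count of 1 of 6 was 0 of 4 with genes of at least 300 UMIs (4.68%), 3 of 6 at 1.25-fold (30.6%) and 2 of 6 with positivity from 2 UMIs (13.3%). For *Chst8* or *Alkal2*, the control count of 1 of 7 was 3 at 1.25-fold (24.8%) and 2 with positivity from 2 UMIs (13.4%), and the knockout count of 1 of 6 was 0 of 4 with genes of at least 300 UMIs (3.16%) and 0 of 6 at 2-fold (1.11%). The AMPA share was 0.299% (control) and 0.307% (knockout) without cells of high respiratory share, 0.283% in the control with quality limits, 0.263% and 0.270% of all UMIs, and 0.274% in the knockout after thinning. The kainate share was 0.0276% in the control without cells of high respiratory share, 0.0247% of all UMIs, and 0.0295% in the knockout after thinning. Over the values of single subunits and their ranks under each alternative, 805 stayed within their interval or rank, 79 moved and 1 reversed. Alternatives that changed only the minimum of UMIs per gene or the fold limit cannot move the ratio of a single subunit. Part of the 805 was therefore fixed in advance. *Gria3*, *Grik3* and, in small classes, *Grik2* and *Grik4* were limited by depth.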
